A study of Mus musculus with 11 samples.

Results

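The retinaldehyde dehydrogenases and the genes that supply, store and carry their substrate were examined in renal cortex of aged mice. The set holds 9 of the 53801 genes listed, namely *Aldh1a1*, *Aldh1a2*, *Aldh1a3*, *Aldh1a7*, *Rdh10*, *Retsat*, *Lrat*, *Rbp4* and *Stra6*, taken by gene name. It was chosen from measured values, since the genotype differences of *Aldh1a1* and *Retsat* in these same mice were already known. Their differences between the genotypes are therefore given as a description, and no conclusion is drawn from tests of them. All 9 had enough reads to enter the fit of 18160 genes.

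RNA-Seq was performed on 1 library from each of 11 male mice of mixed background aged 2 years, 5 floxed control and 6 Cpt1aCKO. Cpt1aCKO mice carried a floxed *Cpt1a* allele with Pax8-rTTA and tetO-Cre, which drives recombination in tubule cells after doxycycline, so other kidney cells keep the gene. Both groups received doxycycline food for 3 weeks at an age of 5 to 8 weeks, and the control mice also carried the floxed allele. Nothing in the labels ties a control mouse to a Cpt1aCKO mouse.

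Vitamin A reaches tissues as retinol bound to RBP4 and enters some cells through STRA6. LRAT stores it as retinyl esters, RETSAT saturates it, and RDH10 oxidizes it to retinaldehyde. ALDH1A1, ALDH1A2 and ALDH1A3 turn retinaldehyde into retinoic acid, the ligand of the nuclear receptors RAR, and CYP26 enzymes degrade that acid. In the kidney, proximal tubules take back filtered RBP4 through megalin, and retinoic acid is needed for kidney development.

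Reads counted on genes ranged from 39628721 to 57459929 per mouse. *Cpt1a*, the deleted gene, was at 418 to 548 CPM in floxed control mice and at 38.4 to 97.3 CPM in Cpt1aCKO mice. CPM denotes the reads of a gene relative to the size of its library, with TMM normalization. Summed markers of the first parts of the proximal tubule reached 11811 to 15242 CPM in every mouse. Some libraries stood apart. Mouse S7602, a Cpt1aCKO mouse, had the highest value for 19.4% of 4333 genes with a mean under 1 CPM. S2152 (floxed control) and S2155 (Cpt1aCKO) followed at 14.6% and 14.3%, and the remaining mice had 4.62% to 8.63%. Mice S7601 (floxed control) and S7763 (Cpt1aCKO) had the highest sums of urothelium, mesothelium and principal cell markers.

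*Aldh1a1* and *Aldh1a7*, a rodent paralogue of it, are neighbors on chromosome 19, 49.5 kb apart and on opposite strands in GRCm38 (chr19:20492715-20643465, plus strand, and chr19:20692953-20727562, minus strand). *Cpt1a* lies on the same chromosome, 17.1 Mb from *Aldh1a1*. The longest open reading frames of the pair hold 1506 bases each and were identical at 1380 bases, or 91.6%. The other ALDH1A pairs were identical at 67.4% to 68.8% of aligned bases. Of the 1954 windows of 100 bases in the main *Aldh1a1* transcript, 1 also occurred in *Aldh1a7*, so few reads of that length could fit both genes. Some uncertainty in how reads were divided between them remains.

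The stretches just upstream of the main transcripts of both genes are shown because the copies are still alike there. The main *Aldh1a1* transcript starts 109 kb inside the annotated span of the gene. A second *Aldh1a1* window in the table, at chr19:20492333-20492632 before the start of that span, held none of the motifs searched and is not shown. They are RefSeq sequences of GRCm38.p6, from 160 to 11 bases before each RefSeq transcription start, written 5′ to 3′ on the strand of the gene, at chr19:20601808-20601957 and chr19:20727567-20727716. Capitals mark the motif CCAAT.
Aldh1a1: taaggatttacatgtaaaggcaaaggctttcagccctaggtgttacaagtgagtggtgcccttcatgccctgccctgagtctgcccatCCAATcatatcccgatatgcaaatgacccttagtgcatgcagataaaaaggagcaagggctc
Aldh1a7: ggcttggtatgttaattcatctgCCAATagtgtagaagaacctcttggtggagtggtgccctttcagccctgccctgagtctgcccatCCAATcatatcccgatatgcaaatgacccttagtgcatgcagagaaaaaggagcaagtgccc
Without gaps the stretches were identical at 99 of 150 positions, with 1 unbroken run of 65 bases that holds a CCAAT from -72 to -68 in both. Across the whole windows of these starts, from 250 bases before to 50 after the start, 70.6% of aligned bases matched. CCAAT, searched on both strands, was found in 37.4% of 32851 mouse promoters. The single nuclear receptor motif AGGTCA occurred in 16.3% of promoters and in none of the 12 windows of the 7 genes of the set that had an entry. Its direct repeat with 1 base between, AGGTCANAGGTCA, occurred in 0.0396% of promoters and also in none of these windows. TATAAA was found in 13.6% of promoters, among them those of *Retsat* (-30 to -25), *Aldh1a7* (-244 to -239) and 1 of the *Rbp4* windows (-28 to -23). These are matches of letters and were not tested as sites.

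*Retsat* was the most abundant of the 9 genes. In floxed control mice its level per kilobase of annotated exon was 140 ± 17.0 CPM per kb (SD, n = 5), above 97.1% of the 14578 protein-coding genes tested. *Rdh10* followed at 22.0 ± 3.56 CPM per kb and *Aldh1a7* at 16.01 ± 2.43 CPM per kb, with overlapping ranges. *Aldh1a1* came next at 7.80 ± 2.69 CPM per kb, with no overlap with *Aldh1a7*. This order depends on the length used. All annotated exons of *Aldh1a1* span 4937 bases, while its main transcript, the one with the longest open reading frame, has 2053. Per kilobase of main transcript, *Aldh1a1* was at 18.8 ± 6.48 CPM per kb in floxed control mice, *Aldh1a7* at 16.01 ± 2.43 CPM per kb, and their ranges overlapped.

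The other 5 genes were low. On the exon scale in floxed control mice, *Aldh1a3* had a mean of 1.66 ± 3.30 CPM per kb, *Aldh1a2* of 1.19 ± 0.409, *Stra6* of 1.03 ± 0.300, *Lrat* of 0.503 ± 0.223 and *Rbp4* of 0.460 ± 0.385 (SD, n = 5). The *Aldh1a3* mean rested on mouse S7601 at 7.56 CPM per kb, while the other 4 floxed control mice had 0.0552 to 0.311 CPM per kb. Without S7601 the mean was 0.186 CPM per kb, which would put *Aldh1a3* last of the 9. From *Aldh1a1* down, the ranges of genes next to each other in this order overlapped, that of *Aldh1a3* with *Aldh1a1* and with *Aldh1a2* through S7601 alone. *Rbp4*, made mainly by the liver, was above 18.5% of the protein-coding genes tested.

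**Figure D1:**
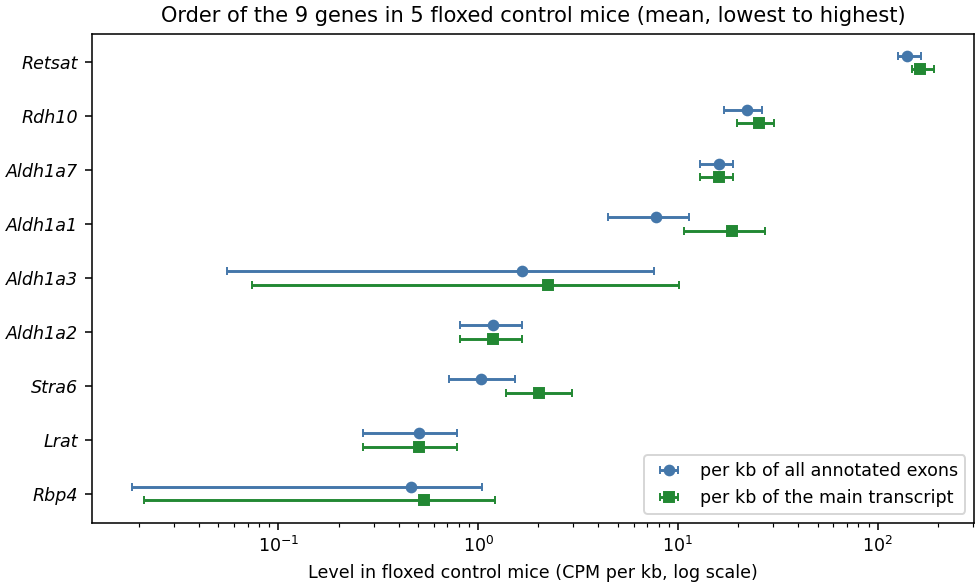
Levels of the 9 genes in 5 floxed control mice, in CPM per kilobase on a log axis, per kilobase of all annotated exons (circles) and of the main transcript (squares). Points are means and bars run from the lowest to the highest mouse. *Retsat* stands at 140 CPM per kb of exon, and *Aldh1a1* moves from 7.80 to 18.8 CPM per kb with the shorter length.

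*Aldh1a1*, which oxidizes retinaldehyde to retinoic acid and also other aldehydes, was higher in every Cpt1aCKO mouse than in any floxed control mouse. Floxed control mice had 31.8 (S2152), 35.3 (S7601), 56.0 (S7762), 47.3 (S2582) and 22.1 CPM (S2578). Cpt1aCKO mice had 107 (S2155), 92.9 (S2394), 90.5 (S2397), 62.2 (S7602), 78.1 (S7763) and 67.5 CPM (S2577). The lowest Cpt1aCKO mouse was S7602 and the highest floxed control mouse was S7762. The means were 82.9 ± 16.8 CPM (SD, n = 6) and 38.5 ± 13.3 CPM (SD, n = 5), a fitted log2 fold change of 1.11 with an SE of 0.22. The reads behind these values numbered 1115 to 2669 in the control mice and 2704 to 4823 in the knockouts. With each mouse left out in turn, the log2 fold change ranged from 0.96 to 1.28. In whole cortex, more cells that express a gene and more RNA per cell cannot be told apart.

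*Aldh1a7* differed less. Floxed control mice had 30.4 (S2152), 32.4 (S7601), 37.3 (S7762), 38.8 (S2582) and 26.5 CPM (S2578), and Cpt1aCKO mice had 44.8 (S2155), 33.6 (S2394), 39.5 (S2397), 43.6 (S7602), 37.1 (S7763) and 46.0 CPM (S2577). The groups overlapped, with 4 of 6 Cpt1aCKO mice above the highest floxed control mouse and a fitted log2 fold change of 0.30 with an SE of 0.11. The reads of *Aldh1a1* over those of *Aldh1a7* in the same mouse came to 0.832 to 1.501 in floxed control mice and to 1.42 to 2.77 in Cpt1aCKO mice. Mouse S7602, at 1.42, fell below the highest floxed control mouse. Within groups, log2 CPM of the pair had a Pearson r of 0.49 over 11 mice.

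*Aldh1a2*, the enzyme that makes most retinoic acid in the embryo, was low and similar in range. It was at 1.83 to 3.74 CPM with a median of 2.11 CPM in floxed control mice and at 2.25 to 4.63 CPM in Cpt1aCKO mice, with a fitted log2 fold change of 0.25 and an SE of 0.25.

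*Aldh1a3*, a further retinaldehyde dehydrogenase, was set apart by 1 mouse in each group. Floxed control mice had 0.841 (S2152), 34.9 (S7601), 0.255 (S7762), 1.44 (S2582) and 0.910 CPM (S2578). Cpt1aCKO mice had 0.691 (S2155), 0.596 (S2394), 1.67 (S2397), 0.0920 (S7602), 13.8 (S7763) and 1.98 CPM (S2577). S7601 had 1813 reads and S7763 had 819, against 4 to 113 in each of the other 9 mice. The fitted log2 fold change was -1.27 with an SE of 1.44, 1.88 without S7601, -2.91 without S7763 and 0.23 without both. The same 2 mice had the highest summed urothelium markers, at 27.4 and 18.99 CPM against 3.24 to 12.2 CPM in the others, and 4 of the 6 markers were highest in them. They also led the sums of principal cell markers (1844 and 1717 CPM, next 1388 CPM) and of mesothelium markers (20.4 and 28.2 CPM, next 17.1 CPM). Singly, 3 of the 5 principal cell markers and 2 of the 4 mesothelium markers were highest in them. *Aqp2* alone gave 1312 CPM of the principal cell sum in S7601. *Scnn1b*, another principal cell marker, was lowest of all mice in S7763, at 54.2 CPM. The part of these cells in the *Aldh1a3* values was not tested.

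**Figure D2:**
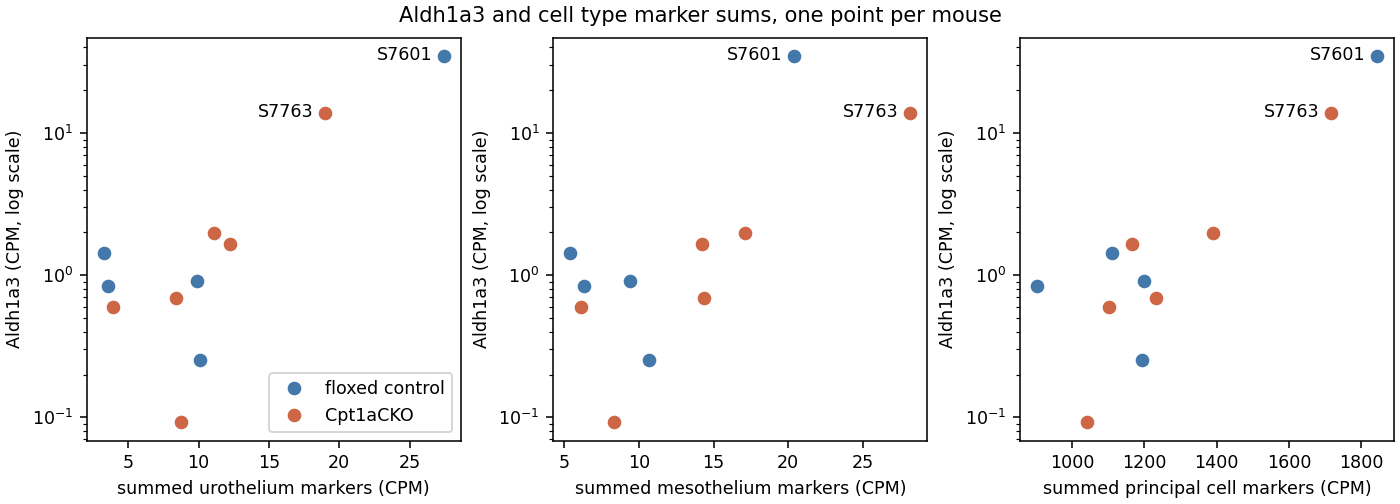
*Aldh1a3* (CPM, log axis) against the summed CPM of urothelium, mesothelium and principal cell markers, with 1 point per mouse and colors for the groups. S7601 (34.9 CPM) and S7763 (13.8 CPM) are at the far right of each panel, and the other 9 mice are at or below 1.98 CPM.

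*Retsat*, the retinol saturase, had 454 (S2152), 455 (S7601), 539 (S7762), 580 (S2582) and 449 CPM (S2578) in floxed control mice. In Cpt1aCKO mice it had 1004 (S2155), 671 (S2394), 738 (S2397), 562 (S7602), 607 (S7763) and 589 CPM (S2577). In 5 of 6 Cpt1aCKO mice it was above every floxed control mouse, and S7602 was below S2582. The means were 695 ± 164 CPM (SD, n = 6) and 495 ± 60.2 CPM (SD, n = 5), a fitted log2 fold change of 0.49 with an SE of 0.14, and 0.35 without S2155. The numbers of the mice start with S2 or S7, which the labels do not explain, and within either series neither *Aldh1a1* nor *Retsat* overlapped between the groups. The S7 series holds only S7601, S7762, S7602 and S7763. In the S2 series *Retsat* separated narrowly, at 589 CPM in S2577 against 580 CPM in S2582, and nothing is read from this split. With the number series in the fit, the log2 fold changes of *Aldh1a1* and *Retsat* were 1.11 and 0.47.

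Markers of other cells were read beside these genes. Adipocytes also express *Retsat*, and their marker sum was 6.78 to 37.5 CPM in floxed control mice and 24.4 to 71.5 CPM in Cpt1aCKO mice, nearly all of it from *Car3*. Without *Car3*, the 6 other markers summed to 0.356 to 1.66 and 0.405 to 2.28 CPM, and the defining marker *Adipoq* had 0 reads in every mouse. The summed distal convoluted tubule and connecting tubule markers were lower in every Cpt1aCKO mouse (1187 to 1375 CPM) than in any floxed control mouse (1420 to 1868 CPM). Not every marker of this list went that way. *Trpm6* had means of 13.4 CPM in floxed control and 14.6 CPM in Cpt1aCKO mice, with overlapping groups. Summed markers of the last part of the proximal tubule overlapped, at 1072 to 2420 CPM in floxed control and 1258 to 1902 CPM in Cpt1aCKO mice. In floxed control mice this sum was lowest in S7762, which had the most *Aldh1a1*, and highest in S2578, which had the least. Among Cpt1aCKO mice it was highest in S7602 (1902 CPM), with the least *Aldh1a1*, and low in S2155 (1263 CPM), with the most. The part of these cell types in the *Aldh1a1* and *Retsat* differences was not tested.

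*Rdh10*, which oxidizes retinol to retinaldehyde, was nearly level between the groups. It was at 91.7 ± 14.8 CPM (SD, n = 5) in floxed control mice and 94.1 ± 11.1 CPM (SD, n = 6) in Cpt1aCKO mice, a fitted log2 fold change of 0.04 with an SE of 0.11, which turned to -0.04 without S7762 and -0.01 without S2577. *Lrat*, which esterifies retinol, was at 1.42 to 4.21 CPM with a median of 2.12 CPM in floxed control mice and at 2.35 to 5.51 CPM with a median of 4.31 CPM in Cpt1aCKO mice. Its fitted log2 fold change was 0.58 with an SE of 0.30, and 4 of 6 Cpt1aCKO mice were above the highest floxed control mouse.

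The carrier and its receptor did not separate the groups. *Rbp4* had 1 to 87 reads per mouse, at 0.0247 to 1.41 CPM in floxed control mice and 0.134 to 1.53 CPM in Cpt1aCKO mice, a fitted log2 fold change of 0.10 with an SE of 0.67. Its sign turned when S2152, S7762 or S2577 was left out (-0.20, -0.06 and -0.33). *Stra6* was at 4.14 to 8.86 CPM and 3.97 to 8.59 CPM, a fitted log2 fold change of -0.06 with an SE of 0.22, which turned to 0.12 without S2578, 0.03 without S2577 and 0.002 without S7763.

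**Figure D3:**
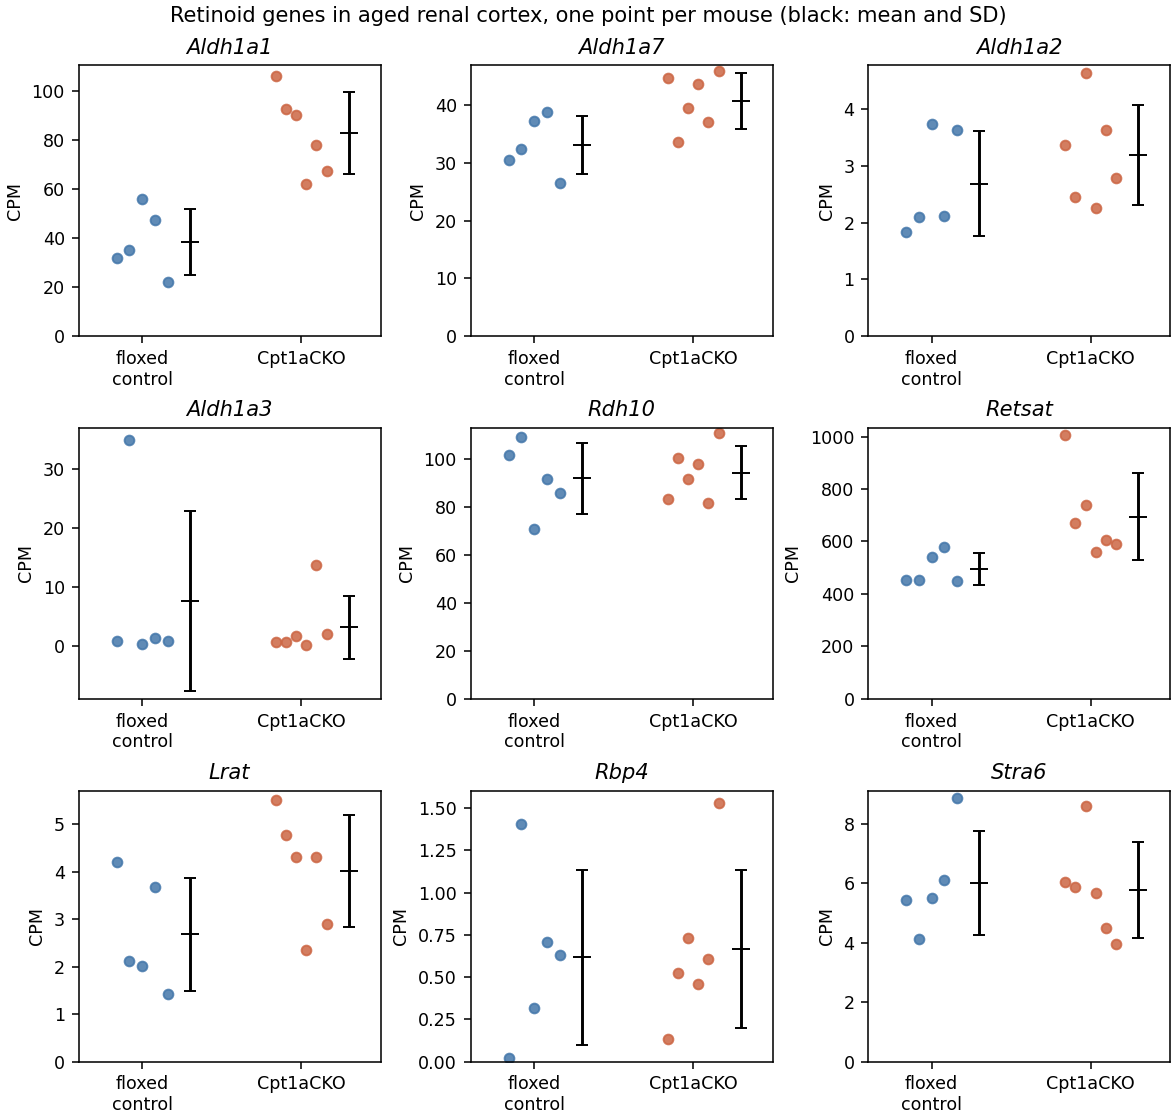
CPM of the 9 genes in each of 5 floxed control and 6 Cpt1aCKO mice, with the mean and SD in black and an axis of its own for each gene. *Aldh1a1* is the gene whose groups do not overlap, *Retsat* overlaps only through S7602 at 562 CPM, and *Aldh1a3* holds 1 high mouse in each group.

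Over the 9 genes, 7 fitted log2 fold changes were positive with a median of 0.25, against 51.4% positive and a median of 0.01 over all genes tested. Groups did not overlap, with Cpt1aCKO higher, for 1 of the 9 (*Aldh1a1*) and for 0.341% of all genes. At an unadjusted edgeR p under 0.05, 3 were higher (*Aldh1a1*, *Retsat* and *Aldh1a7*) beside 3.35% of all genes, and 0 were lower beside 2.57%. At a Benjamini-Hochberg adjusted p under 0.05, edgeR called 0 of the 9 beside 0.0165% of all genes, and DESeq2 called 1, *Aldh1a1*, beside 0.27%. DESeq2 gave no adjusted p for 1 of the 9. Nothing is read from these counts, as the same contrast chose the set.

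The wider pathway was tested, since its genes were not used to choose the set, though its lists were made with earlier results of these data known. In the totals each gene is counted 1 time, while 6 genes stand in more than 1 list and enter the numbers of each. Of 94 genes in 7 lists, 74 had enough reads, of which edgeR and DESeq2 called 0 after adjustment (smallest adjusted p by edgeR 0.73). At an unadjusted edgeR p under 0.05, 2 of the 74 were higher in Cpt1aCKO mice (2.703%) and 1 was lower (1.35%), shares near those over all genes. By DESeq2, 5 were higher (6.76%) and 1 was lower (1.35%), beside 3.81% and 2.91% of all genes with a DESeq2 p. Of the 74 log2 fold changes, 41 were positive, with a median of 0.03, beside 51.4% positive and a median of 0.01 over all genes tested.

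Both genes that passed the unadjusted test upward were other aldehyde dehydrogenases, of which 17 of 17 were tested. *Aldh3a2*, which oxidizes fatty aldehydes, was at 227 ± 24.7 CPM (SD) in the floxed control and 267 ± 13.5 CPM (SD) in the Cpt1aCKO mice, and all 6 Cpt1aCKO mice were above the highest floxed control mouse, which was at 247 CPM. Its log2 fold change was 0.23 with an SE of 0.08 (edgeR unadjusted p = 0.00913, adjusted p = 0.73). *Aldh9a1*, which oxidizes an aldehyde of carnitine synthesis, was at 507 ± 45.2 and 601 ± 71.2 CPM, a log2 fold change of 0.25 with an SE of 0.09 (edgeR unadjusted p = 0.0168). The abundant mitochondrial enzymes *Aldh2* and *Aldh6a1* had log2 fold changes of 0.08 and 0.04.

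Among 19 of 28 retinol and retinaldehyde oxidoreductases tested, 9 had positive log2 fold changes. *Rdh5*, an 11-cis-retinol dehydrogenase, was at 14.1 ± 2.46 CPM in floxed control and 11.1 ± 1.75 CPM in Cpt1aCKO mice, a log2 fold change of -0.35 with an SE of 0.14 (edgeR unadjusted p = 0.0279). This p rose to 0.0881 without S2152, 0.0659 without S2578, 0.0560 without S2394 and 0.0589 without S7763. The abundant alcohol dehydrogenases *Adh1* and *Adh5* had log2 fold changes of -0.21 and -0.07.

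The remaining lists held no gene at an unadjusted edgeR p under 0.05, while DESeq2 added *Lipe*, a lipase, *Rxrg*, a retinoid receptor, and *Cyp26a1* at that threshold (log2 fold changes of 0.53, 0.84 and 1.13). For retinyl ester synthesis and hydrolysis, 10 of 11 genes were tested and 2 were positive, with *Lpl* at -0.04 and *Ces1f* at -0.18 on the log2 scale. For carriers and uptake receptors, 9 of 14 were tested and 5 were positive, with *Lrp2*, which encodes megalin, at 0.09 and *Cd36* at -0.14. For retinoid receptors, 6 of 6 were tested and 5 were positive, with *Rxra* and *Rxrb* both at 0.10.

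Genes that retinoic acid is known to induce did not pass the edgeR test. Of 16 tested of 19 listed, 0 had an unadjusted edgeR p under 0.05. For 13 the log2 fold change was positive, and the median was 0.18. Over all genes tested, 51.4% were positive with a median of 0.01. Some of the 13 were near 0, such as *Hoxb4* (0.01) and *Hoxb5* (0.02). Genes measured in the same mice are not independent, so nothing is read from this count. The abundant *Dhrs3* and *Tgm2* were at 0.14 and 0.22. For the retinoic acid hydroxylases, which are themselves induced, *Cyp26b1* was at 0.257 to 7.45 CPM in floxed control and 0.892 to 11.3 CPM in Cpt1aCKO mice, a log2 fold change of 0.96 with an SE of 0.74. Without S7601 its log2 fold change was 1.58, and without both S7601 and S7763 it was 1.62. It fell to 0.67 without S2578, 0.69 without S2397 and 0.71 without S2577. *Cyp26a1*, named after its values were seen, had 2 to 40 reads in floxed control and 15 to 79 in Cpt1aCKO mice, a log2 fold change of 1.12 with an SE of 0.56 (edgeR unadjusted p = 0.0625). Of 3 clearance genes tested out of 5, *Cyp2s1* was at -0.10.

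**Figure D4:**
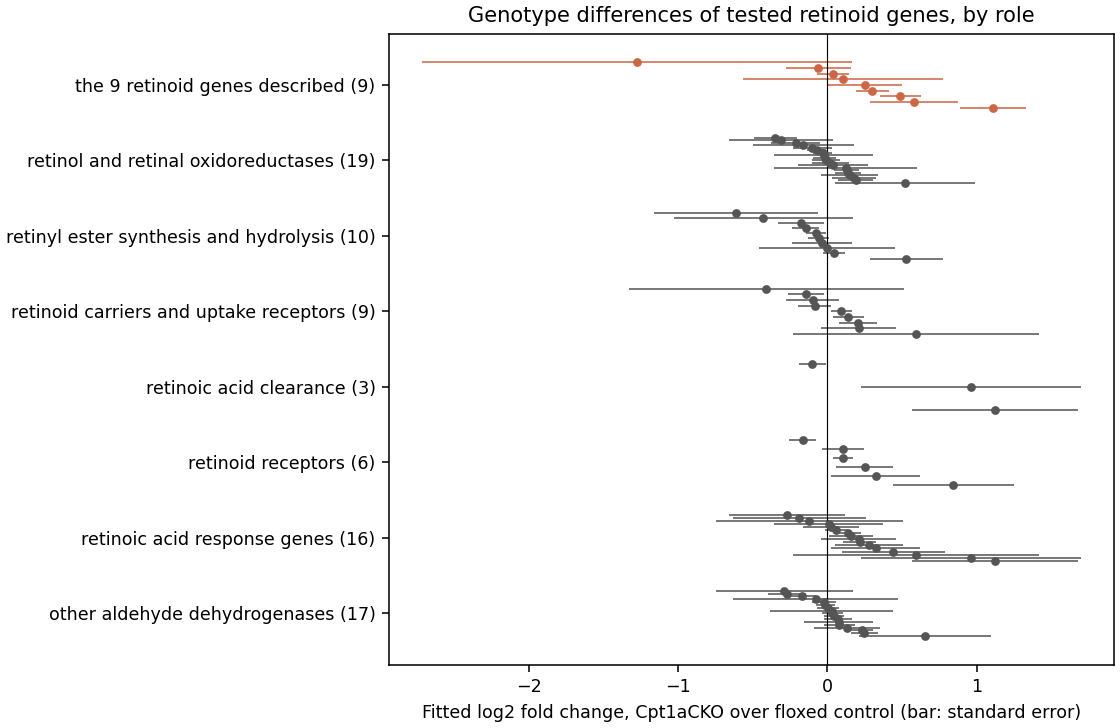
Fitted log2 fold changes of Cpt1aCKO over floxed control, with standard errors as bars, for the 9 genes described (top) and for the tested genes of 7 wider lists, numbers tested in brackets. Among the 9, *Aldh1a1* is farthest right at 1.11 and *Aldh1a3* farthest left at -1.27, with the widest bar.

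The genes on either side of the *Aldh1a1* and *Aldh1a7* pair were tested as well. None of the 6 nearest tested protein-coding genes had an unadjusted edgeR p under 0.05. Over all genes tested, 3.35% were higher and 2.57% lower at that threshold, so 6 genes are too few to show a difference. On one side, log2 fold changes were 0.13 for *Trpm6* (1600 kb from the pair), 0.84 for *Rorb* (1382 kb) and -0.04 for *Anxa1* (102 kb). On the other side they were 0.06 for *Zfand5* (545 kb), 0.22 for *Gda* (664 kb) and -0.10 for *1110059E24Rik* (854 kb). The value for *Rorb*, with 21 to 179 reads per mouse (edgeR unadjusted p = 0.117), included 4.12 CPM in S7602, while the other 5 Cpt1aCKO mice had 0.468 to 1.37 CPM.

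Genes whose levels followed *Aldh1a1* and *Retsat* from mouse to mouse were ranked by the Pearson r of log2 CPM after each group mean was subtracted, over 11 mice and 13826 genes. For *Aldh1a1* the first 4 were *Rab30* (0.92), *Hfe* (0.91), *Gsta1* (0.91) and *AC126028.1* (0.91). *Rab30*, which encodes a small GTPase of the Golgi, was at 1.92 ± 1.10 CPM (SD, n = 5) in floxed control and 7.37 ± 2.11 CPM (SD, n = 6) in Cpt1aCKO mice with no overlap. *Hfe*, which acts in iron sensing, *Gsta1* and *AC126028.1* overlapped between the groups, with log2 fold changes of 0.19, 0.07 and -0.12. For *Retsat* the first 4 were *Slc27a1* (0.96), a fatty acid transporter, *Acadvl* (0.96), an enzyme of mitochondrial fatty acid oxidation, *Vnn1* (0.94), a pantetheinase, and *Cyp4a32* (0.93), of a family that hydroxylates fatty acids. *Acadvl* was at 323 to 363 CPM in floxed control and 380 to 459 CPM in Cpt1aCKO mice. *Slc27a1*, *Vnn1* and *Cyp4a32* overlapped between the groups, with log2 fold changes of 0.26, 0.76 and 0.67. S2155 was the highest mouse for *Retsat* and for all 4 of these genes, and the correlations without it were not computed. *Aldh1a1* and *Retsat* had an r of 0.73 with each other. All values of a mouse come from 1 library, and the highest of so many correlations are large in part because they were picked.

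**Figure D5:**
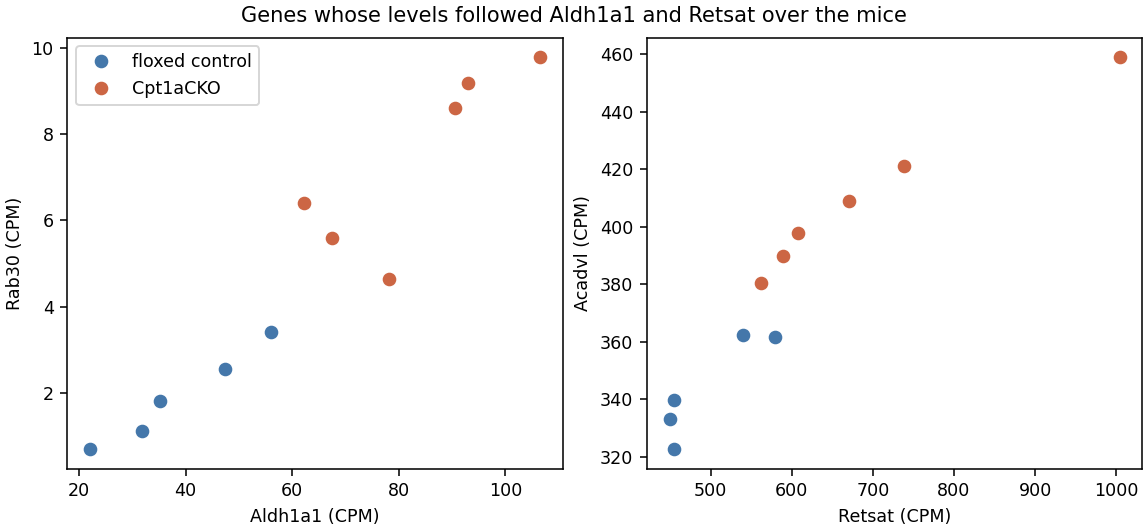
*Rab30* against *Aldh1a1* (left) and *Acadvl* against *Retsat* (right), in CPM, with 1 point per mouse and colors for the groups. Mice with more of one gene mostly had more of the other, with S2155 at the upper right in both panels (107 CPM of *Aldh1a1* and 1004 CPM of *Retsat*).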

How the data were processed

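The authors aligned reads of TruSeq stranded mRNA libraries with STAR 2.7.3a and counted them per gene with HTSeq. The deposited raw counts were used. Deposited normalized counts and the columns of the authors' DESeq2 comparison (mean, fold change, standard error, p and adjusted p) were not used. The submitters' processing notes also name Cufflinks 2.2.1. The genome build is not given in the sources used here, and 99.66% of gene identifiers were found in GENCODE M21 (GRCm38), which gave positions and exon lengths.

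After filterByExpr and TMM normalization, the genotypes were compared by edgeR's robust quasi-likelihood test (version 4.0.16, Benjamini-Hochberg adjustment, threshold 0.05) in R 4.3.3, with files read by data.table (1.17.8). Standard errors were the log2 fold change over the root of its F value. Log2 CPM used a prior count of 2. Of 2 identifiers named *Hoxd4*, the one with more reads was used.

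Genes, lists and tests were chosen with earlier results of these data known. The text names all 9 genes, the 6 genes beside the *Aldh1a1* pair, the 4 genes most like *Aldh1a1* and *Retsat*, and, of each wider list, those with an unadjusted p under 0.05 and the 2 most abundant. Alternatives were DESeq2 1.42.0, other normalizations and filters, a fit that was not robust, the number series as a covariate, each mouse left out and, added after seeing the data, 2 mice left out and main transcript length. The labels do not say that mice of a group came from separate litters, so the mice may not be independent, as the p-values assume. The p-values set the group difference against the spread between these mice. Counts give counting precision only, without molecular identifiers.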

Additional observations from a re-analysis of the deposited data

Results flagged for a closer look

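In 5 of 66 groups of values examined, 1 mouse lay farther from the others than Dixon's 95% limit allows, where chance gives about 1 in 20. *Aldh1a3* was at 34.9 CPM in the floxed control mouse S7601, while the other 4 had 0.255 to 1.44 CPM. It was at 13.8 CPM in the Cpt1aCKO mouse S7763, while the other 5 had 0.0920 to 1.98 CPM. *Adh1*, an alcohol dehydrogenase, was at 799.8 CPM in the Cpt1aCKO mouse S2577 and at 435 to 566 CPM in the other 5. *Trpm6*, a magnesium channel of the distal convoluted tubule, was at 8.16 CPM in the floxed control mouse S2582 and at 14.3 to 15.3 CPM in the other 4. *Rorb*, a nuclear receptor, was at 4.12 CPM in the Cpt1aCKO mouse S7602 and at 0.468 to 1.37 CPM in the other 5.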

How the results depend on the processing

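The log2 fold changes of *Aldh1a1*, *Aldh1a2*, *Aldh1a7*, *Retsat* and *Lrat* stayed positive under all 19 alternatives. *Aldh1a3* turned to 1.88 without floxed control replicate 2 (S7601). At an unadjusted p under 0.05, 2 of the 74 wider retinoid genes tested were higher and 1 was lower in the main fit. The number higher was 5 with DESeq2, 5 with library totals alone, 8 without the low-count filter and 4 without the 2 libraries highest in urothelium markers. The number lower was 2 without the filter, 2 with the number series as a covariate and 0 without those 2 libraries. With 1 mouse left out, the number higher was 2 to 6 and the number lower was 0 to 4, with 6 higher without S7601 or S2577 and 4 lower without S7762 or S2577. Shares over all genes were set beside the main and DESeq2 counts only, and without the filter more genes were tested. Nothing is read from how these counts moved. *Aldh3a2* and *Aldh9a1* kept an unadjusted p under 0.05 in all 19 alternatives (up to 0.0234 and 0.0457), and *Rdh5* in 14. Per kilobase of main transcript, levels in floxed control mice were 18.8 CPM for *Aldh1a1*, 164 for *Retsat* and 2.01 for *Stra6*, against 7.80, 140 and 1.03 per kilobase of exon. No paired analysis was possible because the labels name no litter or pair for any mouse, although the study describes its controls as littermates. Effects of litter were not tested. *Rbp4* had 1 to 87 reads per mouse and a within-group SD of 1.37 on the log2 CPM scale, and the shares of counting error and of variation between mice in it were not separated.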
